A study of Felis catus with 77 samples.

Results

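Tumor tissue (T) and skeletal muscle (SM) of the same cat were compared in the 20 cats for which both were sequenced, which is 40 of the 77 libraries of the series. All 20 SM libraries of the series entered the comparison, while the 10 T libraries without a matched SM library did not. The animals were feline patients with fibrosarcoma (FSA), a malignant tumor of fibroblast-like cells, and the labels name no treatment and no engineered allele. Both tissues of a cat were cut by laser-capture microdissection from formalin-fixed, paraffin-embedded material removed at surgery, and SM is unaffected muscle of a cat with a tumor, not muscle of a healthy animal. Each tissue of a cat gave 1 library, and the case number ties T and SM to 1 animal. The comparison addresses which transcripts set the tumor apart from unaffected muscle of the same cat.

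Skeletal muscle fibers are long fused cells filled with contractile filaments, and a few very abundant transcripts for these filaments and for the energy supply of contraction make up much of their RNA. FSA cells are spindle-shaped, divide, and lay down extracellular matrix, without the contractile apparatus of a muscle fiber. In such a pair of tissues, a few transcripts of one tissue can take up so many of the sequenced reads that all other transcripts appear lower there. The trimmed mean of M values (TMM) method, which derives a scaling factor for each library from genes that do not lie at the extremes, was used to set the libraries on one scale. The deposited files name genes by Ensembl identifier only, and the table of feline gene symbols at hand matched 0 of the 19587 identifiers. Genes are therefore described as groups and by identifier, and whether the tissues expressed the defining markers of muscle or fibroblasts could not be checked by name.

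The total counts lay between 957697 and 14308253 in T (median 9214989) and between 1043709 and 19099337 in SM (median 12291936). The cats with case numbers 11, 12 and 13 stood apart. At an equal depth of 957697 counts, their T libraries showed 16479, 15335 and 17416 genes with at least 1 count, and the other 17 T libraries at most 13661. Their SM libraries showed 15599, 13709 and 15886 genes, and the others at most 12947. The share of the 50 most abundant genes and the counts of called genes are also given without these cats.

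A few genes held most of the counts of SM, and far fewer of those of T. The 50 most abundant genes of each library took 23.4% ± 7.05 of the counts in T and 56.4% ± 6.77 in SM (SD, n = 20 each). The share was higher in SM in all 20 pairs, by 33 percentage points on average (SD 7.60, permutation test with 100000 sign changes, two-sided, p = 2e-05, the smallest these can give, adjusted p = 2e-05 over 4 shares). Without cases 11, 12 and 13 the difference was 32.3 percentage points (permutation p = 4e-05). For the single most abundant gene the share ranged from 16.7% to 29.9% in SM (median 23.1%) and from 1.70% to 18.1% in T (median 4.01%). The T library of case 24, at 18.1%, was the only one to reach the range of SM, where case 30 was lowest at 16.7%, and the next T library was at 7.16%. For the top 10 genes, the lowest SM library was at 29.7% and the highest T library at 26.7%, so the groups did not overlap.

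**Figure D1:**
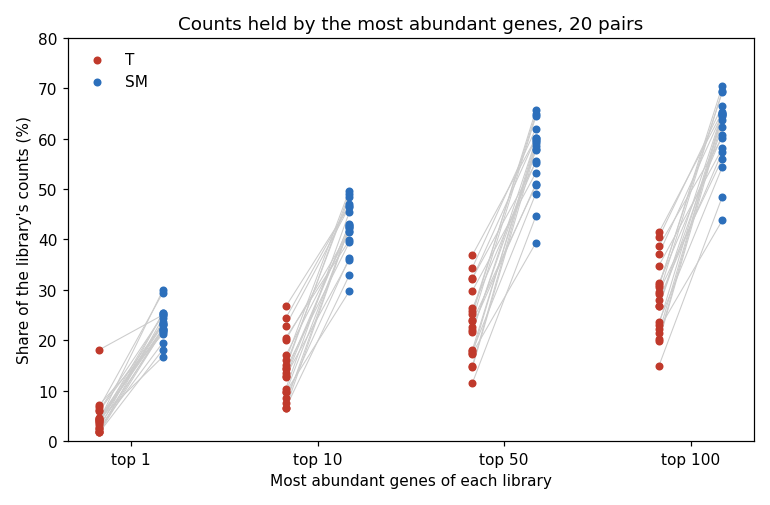
Share of each library's counts (%, vertical axis) held by its 1, 10, 50 and 100 most abundant genes, with T in red and SM in blue, 1 point per library and lines joining the libraries of a cat. SM lies above T in all 20 pairs for every number of genes, and 1 T library (case 24) lies at 18.1% for the top gene.

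In SM, between 11 and 217 genes were enough to account for 50% of the counts (median 21), and in T between 240 and 1682 (median 585). The SM library of case 30 was the one at 217, with the next at 132, and it also had the lowest share in the top 50 genes (39.3%). The T library at 1682 was that of case 11, with the next at 1060. T showed more genes than SM at equal depth in all 20 pairs, by 1576.8 genes on average (SD 730.7). Only the total was matched, so fewer counts were left in SM for genes outside the top 50, and this difference is not independent of the shares above. The lists of the 50 most abundant genes of the tissues, ranked by mean share, had 3 genes in common.

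The difference between T and SM covered a large part of the transcriptome. Out of 12820 genes tested, 3256 were higher and 2461 lower in T (25.4% and 19.2%), where a call needed an absolute log2(FC) over 1 and an adjusted p below 0.05 (edgeR, quasi-likelihood test, cat as a block). Higher genes were 57.0% of the calls. This split rests on the scaling, since without TMM 7704 genes were higher and 1019 lower (88.3% higher), and the median log2(FC) of all genes moved from 0.20 to 1.38. Of the 2461 genes called lower with TMM, 1019 were called lower without it. Without cases 11, 12 and 13, 3151 genes were higher and 2440 lower, of which 2992 and 2351 were among the genes called with all cats. In bulk tissue, fewer cells of a type and less RNA per cell cannot be told apart.

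**Figure D2:**
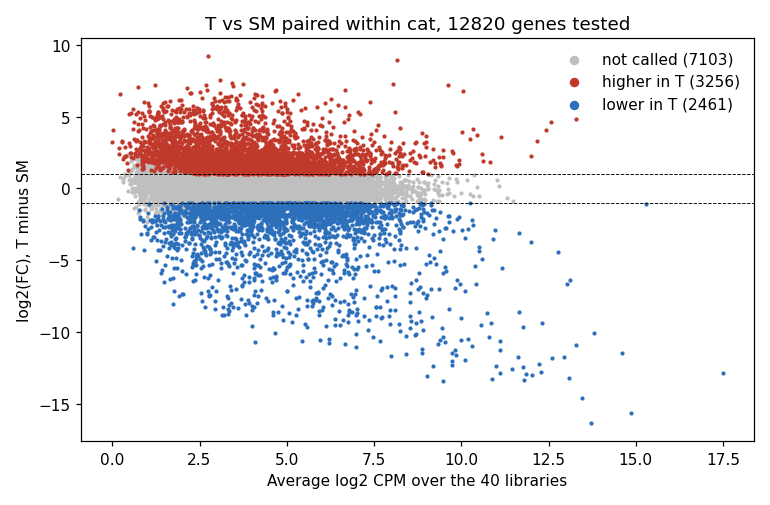
Log2(FC) of T minus SM (vertical axis) against the average log2 CPM over the 40 libraries (horizontal axis), 1 point per gene, for 12820 genes, with called genes in color and dashed lines at the limit of 1. Genes lower in T reach a log2(FC) of -16.32 and genes higher in T one of 9.21, and the most extreme negative values lie among the most abundant genes.

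The lower genes reached larger differences than the higher genes, although the medians of the called genes were alike in size (2.0 and -2.01 on the log2 scale). Beyond a log2(FC) of 4, which is a 16-fold change, 388 genes were higher and 497 lower in T. Beyond 6, a 64-fold change, 51 were higher and 266 lower. The direction of the calls also varied with the level of the gene. Among the 3205 genes with the lowest average level, 33.4% were called higher and 12.4% lower, and among the 3205 with the highest level 16.7% were called higher and 29.6% lower. The filter on low counts was applied before TMM, and the average level itself includes the tissue where a gene is high. The part of these choices in the pattern was not tested. Genes called higher had a median of 191 counts in a T library and 26 in an SM library, and genes called lower a median of 93 and 316.

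Measured as a share of the libraries, the genes called lower took 55.9% to 83.3% of the counts of SM (median 76.7%) and 10.2% to 27.7% of those of T (median 13%). The genes called higher took 28.1% to 46.7% of the counts of T (median 38.2%) and 1.60% to 9.40% of those of SM (median 3.65%). For both sets the shares did not overlap between the tissues, which follows from how the genes were chosen and is given as a description.

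Many of the differences held in every cat. With the difference between T and SM taken within each pair on log2 CPM, 741 genes were higher in T in all 20 pairs (5.78% of the genes tested) and 1012 were lower in all 20 (7.89%). Of these, 717 were called higher and 992 lower, which is 22% of the genes called higher and 40.3% of those called lower. A difference in the called direction in at least 18 pairs was found for 2019 of the 3256 higher and 1864 of the 2461 lower genes, and the least regular called genes held in 11 pairs. Without TMM, 3051 genes were higher and 417 lower in all 20 pairs. A stricter reading asked for a difference over 1 on the log2 scale in every pair, which 128 genes passed in the direction of T and 427 in the direction of SM. For a difference over 4 in every pair, these numbers were 0 and 87. Every T library lay above every SM library for 97 genes (0.757% of those tested), and below every SM library for 396 (3.09%).

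**Figure D3:**
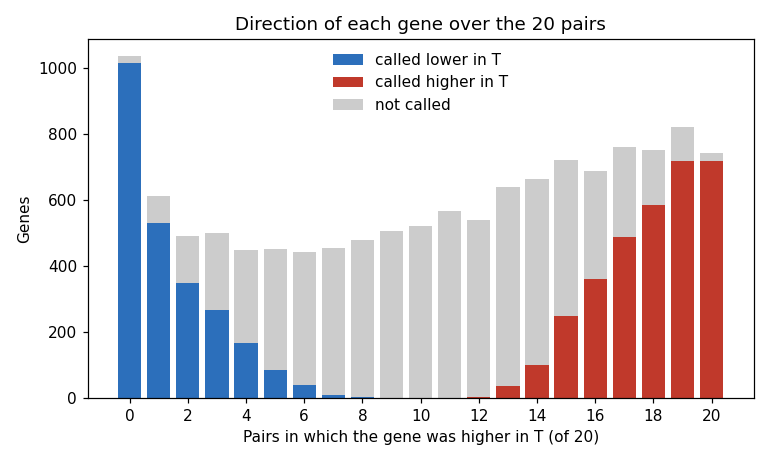
Number of genes (vertical axis) by the number of the 20 pairs in which the gene was higher in T (horizontal axis), stacked by call (blue lower, red higher, grey not called). The genes gather at both ends, and the bar at 0 pairs is higher than that at 20 pairs (741 genes). It also holds genes that were lower in fewer than all 20 pairs because of a pair without a difference, so it shows 1036 genes, against 1012 lower in all 20.

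Genes are named by identifier from those that were called, had at least 10 counts in each of the 40 libraries and moved in one direction in all 20 pairs, which 217 higher and 510 lower genes did. The 2 with the largest log2(FC) in each direction are described.

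ENSFCAG00000009217 had the largest log2(FC) of these 217 higher genes. Its level lay between 4010 and 27700 CPM in T (median 9120) and between 93.1 and 1460 CPM in SM (median 424), on the TMM scale. All T libraries lay above all SM libraries, and the smallest difference within a pair, in case 8, was 2.13 on the log2 scale. The log2(FC) was 4.59 (SE 0.36), with an adjusted p of 1.2e-10 in edgeR's quasi-likelihood test. For this and the other named genes, the SE was derived from the test, as the absolute log2(FC) divided by the square root of its F statistic. It is not the SE of the differences within pairs. With all 77 libraries on one TMM scale, its median was 11400 CPM in the 20 T libraries, 7060 CPM in the 10 T libraries that had no part in the comparison, 684 CPM in 16 adipose tissue (AT) and 942 CPM in 11 connective tissue (CT) libraries, and 552 CPM in SM. Of the 10 other tumors, 9 lay above every SM library on that scale.

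ENSFCAG00000023549 was far less abundant. It lay between 43.3 and 667 CPM in T (median 359) and between 3.67 and 35.1 CPM in SM (median 16.9). The groups did not overlap, but case 8 came close, with 43.3 CPM in T and 34.1 CPM in SM, and the next lowest T library was at 137 CPM. The log2(FC) was 4.40 (SE 0.37, edgeR adjusted p = 3.6e-10). The SM counts of this gene went down to 13, so its lowest SM levels are coarse. Of the 10 other tumors, 9 lay above every SM library.

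ENSFCAG00000046559 was the most abundant gene of every SM library, with 16.7% to 29.9% of the counts. In T it ranged from 0.000198% to 0.509% of the counts (median 0.00487%), and the highest was case 22, where 0.509% had a 95% Wilson interval of 0.5044% to 0.5128% for counting error. On the TMM scale it lay between 145000 and 662000 CPM in SM and between 1.59 and 4190 CPM in T, without overlap. The next highest T library was at 1660 CPM and the next lowest at 3.7 CPM. The difference within pairs thus varied widely, from -17.79 in case 8 to -6.92 in case 22, with a median of -13.18 (SD 3.23). The log2(FC) was -12.90 (SE 1.25, edgeR adjusted p = 3.3e-09), and it was -9.68 without the cat as a block, a smaller difference in the same direction. The 10 other tumors lay between 5.36 and 427 CPM on the scale of all 77 libraries, below every SM library.

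ENSFCAG00000030433 showed the same direction with less spread. It lay between 6220 and 94500 CPM in SM (median 45800) and between 1.19 and 174 CPM in T (median 12.4), and the groups did not overlap. The lowest SM value was that of case 30, with the next at 18700 CPM, and the highest T value that of case 22, with the next at 65.9 CPM. The lowest T value was that of case 6, with the next at 5.31 CPM. The log2(FC) was -11.48 (SE 0.67, edgeR adjusted p = 6.7e-13).

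**Figure D4:**
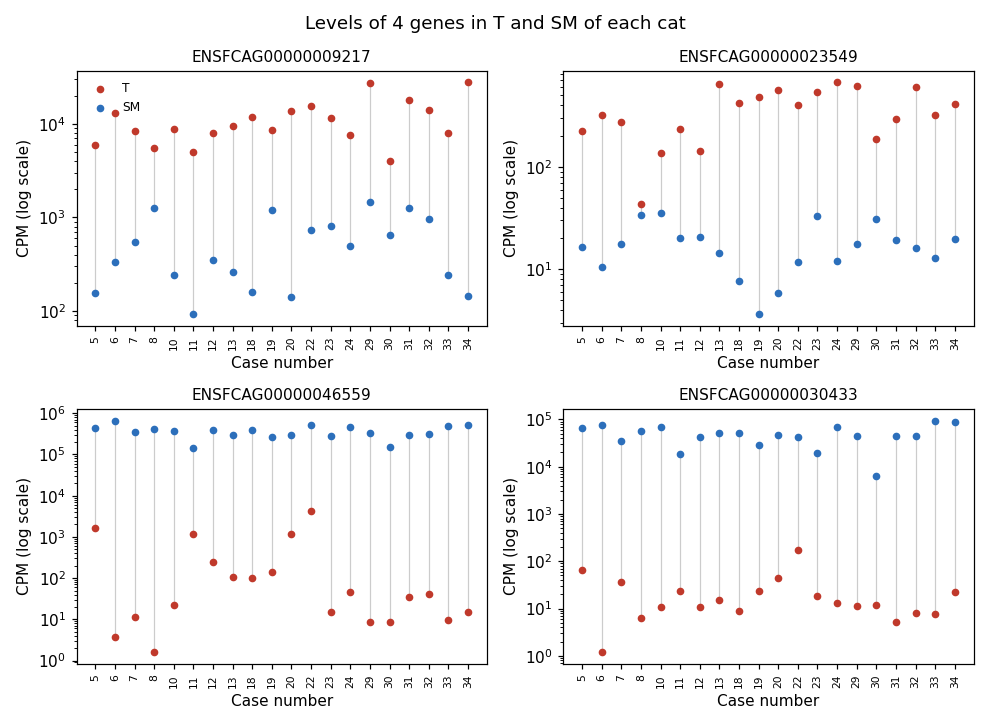
Levels of 4 genes in CPM (vertical axes, log scale) in T (red) and SM (blue) of each of the 20 cats by case number, with lines joining the libraries of a cat. In each panel the colors do not overlap, and the closest pair is case 8 for ENSFCAG00000023549 (43.3 CPM in T and 34.1 CPM in SM).

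The 47 genes that were among the 50 most abundant in SM but not in T showed how the most abundant muscle transcripts behaved in the tumors. They were chosen by their level, so their being lower in T is in part given by the choice. All 47 were called lower in T, where 19.2% of all genes tested were, and all were lower in all 20 pairs, where 7.89% of all genes were. Their median log2(FC) was -10.61 (range -16.32 to -2.88), where the median of all genes tested was 0.20. Together they took 33.2% to 62.5% of the counts of SM (median 54.5%) and 0.265% to 1.5% of those of T (median 0.655%). In the 10 other tumors they took 0.318% to 0.691%.

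These genes were far more variable in T than in SM. The range over the 20 libraries was wider in T for 45 of the 47 genes, with a median range of 7.12 on the log2 scale in T and 2.78 in SM. Their mean log2 CPM per library lay between 1.35 and 6.22 in T (median 2.60, SD 1.37) and between 11.07 and 13.46 in SM (median 12.69, SD 0.59). The T libraries of cases 22, 5, 20 and 11 were the highest, at 6.22, 5.62, 5.22 and 4.95, and those of cases 8, 31 and 34 the lowest, at 1.35, 1.93 and 2.05. Of the 47 genes, 26 had a T library without a count, and the part of low counts in this spread was not tested. Whether some muscle tissue was captured with the tumor in these cats was not tested.

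The same 47 genes were low in AT and CT as well, with a median of 0.575% of the counts in the 16 AT libraries and 0.415% in the 11 CT libraries. The AT library of case 6 was an exception at 29.7%, with the next AT library at 1.32%, and the CT library of case 6 was the highest CT library at 1.88%. In the T library of case 6 the 47 genes took 0.704% of the counts, near the median of T.

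Among the 47 genes most abundant in T but not in SM, the picture was less uniform. Of these, 33 were called higher in T, where 25.4% of all genes were and 14 were not called. They too were chosen by their level, and 19 were higher in all 20 pairs, where 5.78% of all genes tested were. Their median log2(FC) was 1.91 (range -0.55 to 7.17). They took 8.64% to 29.5% of the counts of T (median 17.5%) and 1.07% to 3.68% of those of SM (median 1.66%). The most abundant gene in 13 of the 20 T libraries was not one of them, since it was among the top 50 genes in SM too. It took 0.948% to 18.1% of the counts in T (median 3.34%) and 1.44% to 6.68% in SM (median 3.14%). On the TMM scale it was called lower in T, with a log2(FC) of -1.12 (edgeR adjusted p = 0.00555), so the median raw shares and the scaled difference did not point the same way. This log2(FC) is close to the call limit of 1, and its value under other scalings is not given. The T library of case 24 was at 18.1% (95% Wilson interval 18.1% to 18.2%, counting error only), with the next T library at 5.96%.

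The spread between cats differed between the 2 directions. For the genes called higher in T, the median SD of log2 CPM was 0.98 over T libraries and 1.5 over SM libraries, and 27.2% of the genes varied more in T. For the genes called lower it was 1.14 in T and 0.75 in SM, and 72.0% varied more in T. For genes that were not called the values were 0.76 and 0.79. In both directions the tissue with the lower level showed the larger spread, and the genes called higher had a median of 26 counts in SM. The part of counting error in this was not tested.

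To see how far the differences hold in a cat that did not contribute to them, each cat was left out in turn and the genes called in the other 19 cats were looked up in its own pair. Of the genes called higher in the other cats, between 69.5% and 96.6% were higher in T in the cat left out (median 89.0%). Of the genes called lower, between 76.0% and 96.7% were lower (median 94.1%). Of all genes tested, 48.7% to 62.3% were higher in T in a cat (median 52.1%) and 35.6% to 51.0% lower (median 47.4%). The lowest value in both directions was that of case 11, whose libraries held 957697 counts in T and 1098607 in SM. The next lowest were 81.6% for higher genes (cases 8 and 19) and 79.5% for lower genes (case 7, whose SM library had 1043709 counts). The size of the difference varied between cats too, with a median difference of the higher genes between 0.85 (case 11) and 3.06 (case 18) on the log2 scale, and of the lower genes between -2.78 (case 33) and -1.13 (case 11). The pairs were scaled together, so the factor of a left-out cat was not independent of the others.

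**Figure D5:**
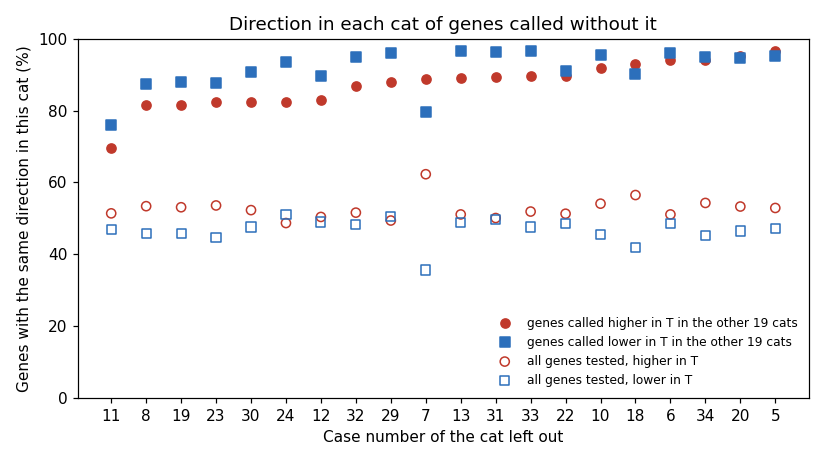
Share of genes (%, vertical axis) with the same direction in a cat as in the call made without it, for each cat by case number (horizontal axis, sorted by the higher genes), for genes called higher in T (red circles) and lower (blue squares). Open symbols give the share of all genes tested with that direction in the same cat. Case 11 is lowest at 69.5% and 76.0%, and in every cat the filled symbols lie above the open ones of their color.

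A comparison that shares no library with the 20 pairs was available in 6 cats without SM (cases 15, 16, 17, 26, 27 and 28), where T was compared with AT in a paired fit of the same form, chosen after the data were seen. There, 454 of 13517 genes were higher and 835 lower in T (3.36% and 6.18%). Of the genes higher in T against SM that were tested in both, 387 of 3196 (12.1%) were also higher against AT, where 3.57% of all 12486 genes tested in both were. Conversely, 86.8% of the 446 genes higher against AT were higher against SM, where 25.6% of all genes were. Of the genes lower against SM, 440 of 2261 (19.5%) were lower against AT, where 6.43% of all genes were, and these made up 54.8% of the 803 genes lower against AT, where 18.1% of all genes tested in both were lower against SM. In the opposite direction, 37 of the genes higher against SM were lower against AT (1.16%), and 13 of the genes lower against SM were higher (0.575%). These shares are descriptions over genes, which are not independent replicates, and the median log2(FC) against AT was 0.66 for the genes higher against SM, -0.47 for those lower and 0.08 for all.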

How the data were processed

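RNA from laser-captured FFPE tissue was sequenced, and the deposited files hold raw counts for each Ensembl gene, as whole numbers that the authors had not normalized. All RNA was processed in 1 batch per the methods. The methods name Trimmomatic 0.36 and Kallisto 0.44 with Felis_catus_9.0, whereas the submitters' processing notes name STAR and featureCounts, so the counter is not settled. Genes with near-identical copies may not be set apart in these counts, which was not tested. Libraries were grouped by tissue and case number from the sample titles. The members and lists were chosen with earlier results of these data known.

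The test was edgeR 4.0.16 in R 4.3.3 (glmQLFit and glmQLFTest, TMM, filterByExpr by tissue, case as a block, Benjamini-Hochberg adjustment), with DESeq2 1.42.0 and limma 3.58.1 as alternatives. Shares and permutation tests were computed in Python 3.11.15 with scipy 1.17.1. Log2 CPM used a prior count of 2. The numbers pair the samples, since they mark the same cat, and the correlation of T and SM deviations over genes had a median of 0.0838 within cats and -0.00705 between cats. Within cats it was over 0.1 in 9 of the 20 pairs, so the pairing rests on the case numbers. On simulated data with 200 of 12820 genes changed, 61.0% were recovered at a log2(FC) of 1.5, 74.5% at 2 and 79.5% at 3. Of the unchanged genes, 2, 1 and 4 were called in these runs. All genes outside the 200 were simulated without a tissue difference, whereas 44.6% of the genes tested were called in the data. The runs therefore cannot show how often genes are called in error under the shift in composition between T and SM.

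Gene lists prepared by symbol could not be applied. Genes were named by the rule for identifiers without symbols, as the 2 largest changes in each direction among called genes with at least 10 counts in all 40 libraries and one direction in all 20 pairs. Alternatives covered the block, scaling, filters, test, depth and each cat. No per-sample column lacked a mapped sample. Other T, AT and CT libraries served for levels and for T against AT in 6 cats. P-values measure the spread between cats.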

Additional observations from a re-analysis of the deposited data

How the results depend on the processing

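Of 238 values under alternative settings, 232 stayed on the same side of the test or within 1.5 times the count, and 6 moved. Without TMM, 7704 genes were higher in T and 1019 lower, against 3256 and 2461, and 3051 were higher and 417 lower in all 20 pairs, against 741 and 1012. With edgeR's glmTreat, which tests against a log2(FC) of 1 in place of 0, 2049 were higher and 1736 lower. With each library thinned to 957697 counts, 2005 were higher and 1714 lower, out of 8614 genes left to test. Other scalings and tools gave 3135 to 3762 higher and 2125 to 2542 lower genes, and other filters on low counts 3552 to 3958 and 2526 to 2604. Without the replicate block 3022 were higher and 2205 lower, and no gene called with the block was called in the opposite direction without it. With each cat left out in turn, 3081 to 3730 were higher and 2118 to 2480 lower. The most higher genes (3730) and the fewest lower genes (2118) came without case 24, whose T library is the reference of the TMM factors. With its removal the reference passed to the SM library of case 11, and the median log2(FC) rose from 0.20 to 0.38. With case 24 left out and the T library of case 5 as reference (both settings of the reference were chosen with the data in view), 3247 were higher and 2408 lower. With all cats and the SM library of case 11 as reference, 3762 were higher and 2125 lower. The 4 named genes kept their direction and call in all 148 values. Alternatives planned for gene lists could not be run without symbols. Genes called higher in T had a median of 26 counts in an SM library, which limits the precision of their SM levels.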

Other observations

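Out of 12820 genes tested, a set of 50 went in opposite directions in different cats. For these, T was over 2 log2 units higher in at least 5 pairs and over 2 lower in at least 5 others. They were expressed at low levels, with a median average of 1.89 log2 CPM against 4.27 for all genes. The part of counting error in their differences was not tested. The spread over libraries was wider in T than in SM for 33 of the 50, where 48.1% of all genes tested varied more in T. Cats differed in the number of these genes on each side. In case 18, 26 were over 2 higher and 12 over 2 lower, while in case 29, 5 were higher and 21 lower, and in case 13, 4 lay on each side. The set was chosen by this pattern, so no test is given.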
